A study of Mus musculus with 4 samples.

Results

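The mitochondrial protein import and chaperone genes were examined in the inguinal white fat of cold-exposed mice (ingWAT), which lies under the skin. They were taken by symbol from the 19030 genes measured, as every gene named Tomm or Timm with a number and 16 further genes of import, presequence cleavage and folding. This gave 40 genes. Of these, 39 encode proteins, and the other, Tomm6os, is a noncoding RNA on the strand opposite Tomm6. RNA was sequenced from 2 libraries of Ctrl ingWAT and 2 of cKO ingWAT. Ctrl mice carried Oct3 alleles flanked by loxP sites. In cKO mice the Adiponectin-Cre transgene, which is active in adipocytes, deleted Oct3 there, so other cells of the depot kept the gene. All mice were C57BL/6, 3 months old and housed at 4°C. The study's methods describe males moved to the cold in steps, and the number of mice behind a library is not given.

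Nearly all mitochondrial proteins are made in the cytosol and carried in through membrane machines. The translocase of the outer membrane (TOM) is the common entry gate, the sorting machinery (SAM) inserts barrel-shaped proteins into the outer membrane, and the TIM23 and TIM22 translocases handle the inner membrane. A motor built around the chaperone encoded by Hspa9 pulls proteins with a presequence into the matrix, where a peptidase removes the presequence and the chaperonin of Hspd1 and Hspe1 helps the protein to fold. Brown and beige adipocytes are rich in mitochondria, and nearly all of the respiratory proteins on which heat production rests pass through this system.

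Expression was measured as FPKM, the fragments of a gene scaled to the length of its transcript and to the mapped reads of its library. This makes levels roughly comparable between genes and libraries, without adjusting for differences in RNA make-up between libraries. The depth was estimated as 17400000 to 18200000 reads a library, and the tested import genes had from about 150 reads a library (Timm22) to about 13927 (Hspa9). Differences are log2 fold changes of cKO against Ctrl on log2(FPKM + 1), with limma and Benjamini-Hochberg adjusted p over the 12658 genes whose FPKM averaged 1 or more, and a gene is said to rise or fall when its adjusted p is under 0.05. Slc22a3, which encodes Oct3, was at 16.95 and 17.68 FPKM in Ctrl and 9.07 and 9.5 FPKM in cKO tissue (log2 fold change -0.83, SE 0.066, limma adjusted p = 0.000439). The targeted gene was thus lower but still detected in cKO tissue. Markers of other cell types also moved with genotype. The summed FPKM of 14 skeletal muscle markers was 2478.2 and 1693.9 in Ctrl and 49.3 and 48.9 in cKO, where all 11 that were tested fell. That of 7 brown or beige adipocyte markers came to 1375.4 and 1606.7 in Ctrl and 4267.9 and 3591.2 in cKO, and 7 of 7 rose. B cell and T cell markers rose in 5 of 5 and 4 of 5 genes, fibroblast and progenitor markers fell in 4 of 5, and 3 of 8 white adipocyte markers fell. Of the macrophage markers 1 of 5 rose and 3 fell, and 2 of 4 endothelial and 2 of 4 erythroid markers fell, while the 4 epithelial markers measured summed to between 0.4 and 0.7 FPKM in every library. The share of these cell types in the values below was not tested, and in whole tissue more cells of a type and more RNA per cell cannot be told apart.

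Promoters of the import genes were searched for short motifs of factors known to act on mitochondrial or stress genes, and the sequences shown here were chosen because they hold such letters or, for Tomm20, hold none. RefSeq windows on GRCm38.p6, from 250 bases before to 50 bases after a start site, were found for 35 of the 40 genes, as 38 windows. There was no entry for Grpel2, Hspa9, Timm21, Tomm40l and Tomm7. Each line gives bases upstream of the start site, 5′ to 3′ on the strand of the gene, with matches to a motif on either strand in capitals. The first runs from the base after the Hspd1 start to the base before the Hspe1 start (chr1:55087933-55088147, plus strand). The others are the 150 bases before the starts of Timm8b (chr9:50603751-50603900, plus strand), Trap1 (chr16:4077811-4077960, minus strand), Grpel1 (chr5:36465035-36465184, plus strand), Tomm22 (chr15:79670718-79670867, plus strand), Mtx2 (chr2:74825662-74825811, plus strand), Pmpcb (chr5:21737010-21737159, plus strand) and Tomm20 (chr8:126945922-126946071, minus strand).
Hspe1: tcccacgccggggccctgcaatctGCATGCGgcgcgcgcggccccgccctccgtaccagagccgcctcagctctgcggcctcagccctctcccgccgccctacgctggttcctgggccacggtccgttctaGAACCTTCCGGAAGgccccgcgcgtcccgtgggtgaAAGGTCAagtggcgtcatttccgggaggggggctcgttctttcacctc
Timm8b: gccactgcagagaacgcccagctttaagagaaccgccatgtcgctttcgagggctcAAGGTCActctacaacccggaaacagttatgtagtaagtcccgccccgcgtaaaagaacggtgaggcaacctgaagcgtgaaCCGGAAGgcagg
Trap1: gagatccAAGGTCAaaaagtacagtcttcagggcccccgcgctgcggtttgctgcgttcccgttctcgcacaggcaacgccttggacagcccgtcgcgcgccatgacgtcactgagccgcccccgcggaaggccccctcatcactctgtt
Grpel1: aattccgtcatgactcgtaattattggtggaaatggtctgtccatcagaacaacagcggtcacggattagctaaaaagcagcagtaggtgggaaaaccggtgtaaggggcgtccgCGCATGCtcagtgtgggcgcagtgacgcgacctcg
Tomm22: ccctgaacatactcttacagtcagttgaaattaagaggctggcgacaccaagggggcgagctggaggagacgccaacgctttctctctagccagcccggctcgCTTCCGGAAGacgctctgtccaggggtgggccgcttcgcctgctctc
Mtx2: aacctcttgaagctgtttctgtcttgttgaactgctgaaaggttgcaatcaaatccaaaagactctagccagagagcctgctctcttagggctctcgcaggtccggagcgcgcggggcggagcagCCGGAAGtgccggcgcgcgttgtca
Pmpcb: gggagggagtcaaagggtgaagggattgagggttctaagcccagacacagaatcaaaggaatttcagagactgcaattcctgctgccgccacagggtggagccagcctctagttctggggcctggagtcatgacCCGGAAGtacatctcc
Tomm20: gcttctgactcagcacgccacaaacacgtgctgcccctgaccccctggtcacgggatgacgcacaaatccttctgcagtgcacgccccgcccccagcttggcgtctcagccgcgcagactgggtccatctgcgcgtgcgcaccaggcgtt

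The letters searched were CCGGAAG for GABP and other ETS factors, AAGGTCA for estrogen-related receptors, GCATGCG for NRF1, AAGATGG for YY1, GAANNTTC for heat shock factors and TGATGNAA for ATF4 and CHOP. ETS letters were in 44.7% of the 38 windows of import genes, against 8.86% of all 32851 windows and 17% of the 12776 windows of genes that passed the filter on low values. Letters for estrogen-related receptors were in 15.8%, against 4.72% and 3.37%, and were found in Hspd1, Hspe1, Timm23, Timm44, Timm8b and Trap1. NRF1 letters were in 10.5%, against 3.58% and 6.12%. YY1 letters (13.2%, against 6.34% and 6.9%) and heat shock letters (7.89%, against 7.86% and 5.7%) were the other motifs found, and the ATF4 and CHOP letters were in none of the 38. The windows of Hspd1 and Hspe1 share 285 bases. Their ETS, estrogen-related receptor, NRF1 and heat shock matches are the same sites, counted under both genes here and below. These shares are descriptions, and a match is not a measured binding site. The ETS letters were in the windows of 7 of the 18 genes with a window that rose and of 9 of the 17 others. The estrogen-related receptor letters were in 4 of the 18 and 2 of the 17. The 17 include Timm8a2, which holds ETS letters, and Tomm6os, and neither of these was tested.

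The most densely marked stretch was the one between Hspd1 and Hspe1, which encode the 2 parts of the matrix chaperonin and point away from each other. Their start sites are 216 bases apart, and the 2 windows share 285 bases. A second Hspd1 window, for another start, lies past the Hspe1 start. Going from Hspd1 to Hspe1, the shared stretch holds 1 match for NRF1, then a heat shock match that overlaps 2 ETS matches on opposite strands, then 1 match for estrogen-related receptors.

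**Figure D1:**
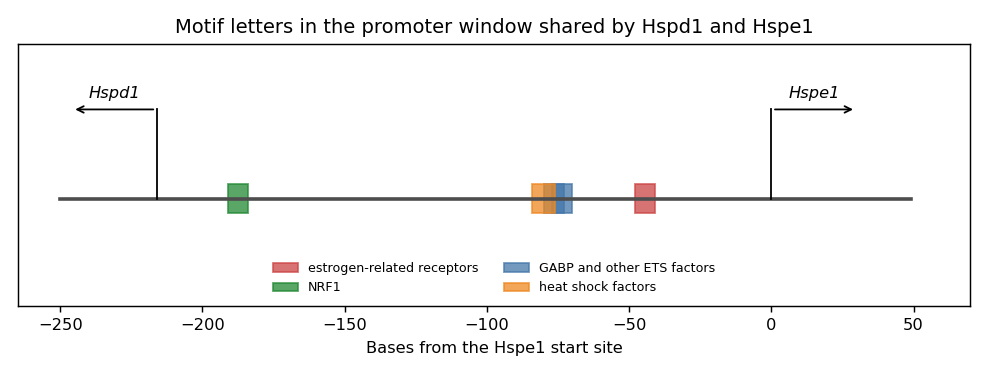
Motif matches in the Hspe1 promoter window, by distance in bases from the Hspe1 start site, with arrows for the directions of Hspe1 and Hspd1. The heat shock and ETS letters overlap near the middle, and the start sites are 216 bases apart.

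Import and chaperone RNA was higher in cKO ingWAT, by modest amounts. Of the 40 genes, 38 passed the filter on low values. Of these, 20 rose and 0 fell, whereas 12% of all genes tested rose, 13.8% fell and 25.8% did either. The rises ran from 0.20 to 0.49 on the log2 scale, or from 15.8% to 41.6% of the Ctrl mean FPKM, and 0 of them reached a log2 fold change of 0.5, as 3.84% of all genes tested did. The 18 other genes did not pass the test, 7 of them with an unadjusted p under 0.05. Dnajc19 was the 1 gene lower in cKO at that unadjusted level, as were 20.2% of all genes tested. In 31 of the 38, both cKO libraries were above both Ctrl libraries, against 31.9% of all genes, in 1 both were below, against 34.6%, and in 6 the groups overlapped. The log2 fold change was above 0 in 35 of the 38, against 48.8% of all genes tested. Its median was 0.22, beside -0.01 for all genes tested.

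The count of genes that rose depended on the libraries. It was 8 without Ctrl replicate 2, 9 without cKO replicate 1 and 14 without cKO replicate 2, and without Ctrl replicate 1 it was 0, although the median log2 fold change was then 0.21. Without Ctrl replicate 1, the genes that rose in the whole table also went from 1519 to 303. Summed over the 40 genes, FPKM came to 2221.3 and 2300.3 for Ctrl against 2737.6 and 2647.6 for cKO. This was 0.454% and 0.475% of all FPKM in Ctrl and 0.55% and 0.532% in cKO, so the 2 genotypes did not overlap.

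**Figure D2:**
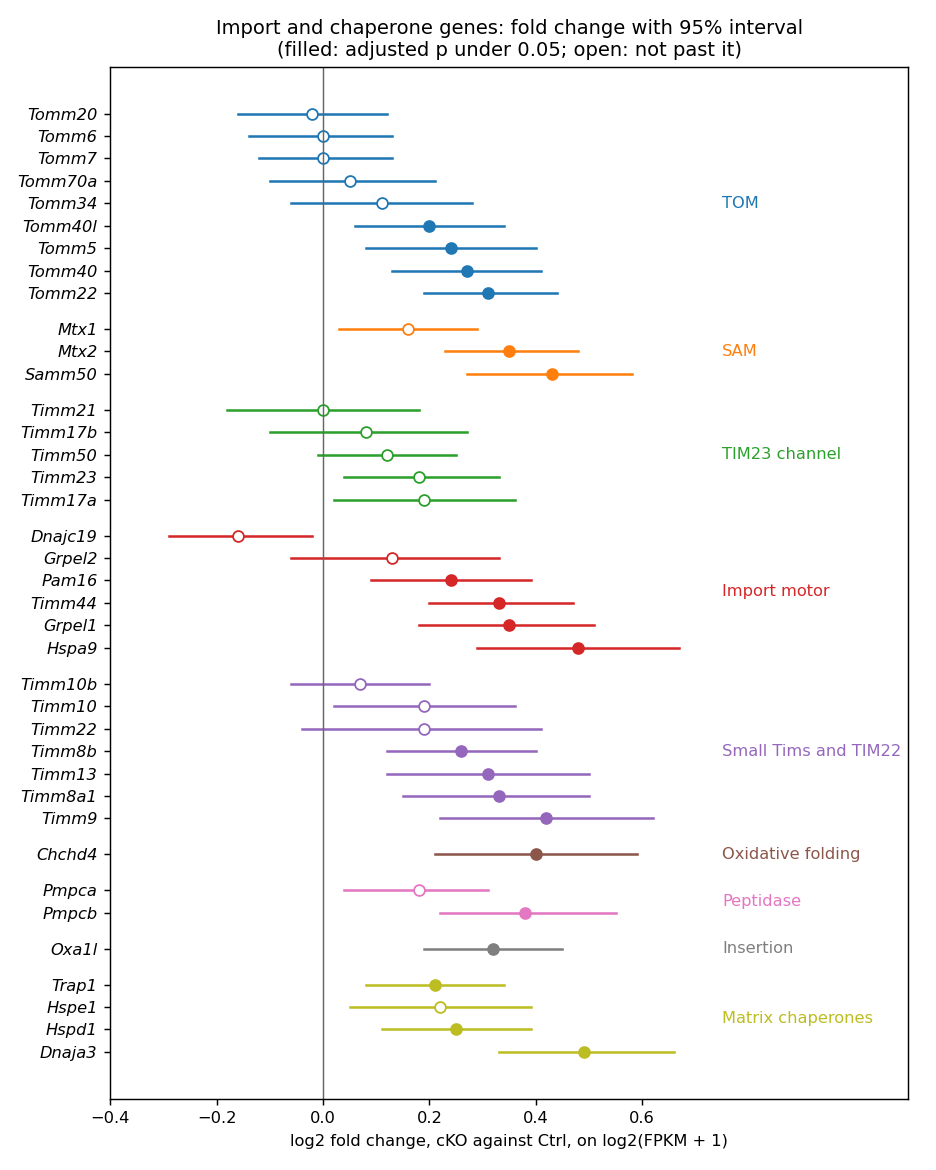
Log2 fold change of cKO against Ctrl on log2(FPKM + 1) for the 38 genes tested, with 95% intervals, grouped by role. Filled points passed an adjusted p of 0.05 (20 genes, all higher), and open points did not (18 genes).

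The 9 Tomm genes for proteins, those of the outer membrane gate and the cytosolic Tomm34, were divided. Among them 4 were higher and the other 5 not past the test. Tomm22, the central receptor that joins the pores into a complex, was at 56.95 and 57.12 FPKM in Ctrl and at 69.93 and 72.48 in cKO (log2 fold change 0.31, SE 0.0544, adjusted p = 0.00654). Tomm40, the pore itself, was at 43.25 and 41.22 in Ctrl and at 52.28 and 49.84 in cKO (0.27, SE 0.059, adjusted p = 0.0162). The groups of neither gene overlapped. Tomm40l, a second gene for the pore, rose from 17.55 and 18.01 FPKM to 20.81 and 20.36 (0.20, SE 0.0593, adjusted p = 0.046). It shares 2118 bases of exon with Nr1i3 on the opposite strand, and reads of such partners cannot be told apart where strand is not stated. Of the genes that rose, Pam16 (437 bases), Grpel1 (411), Tomm40 (258) and Oxa1l (232) have such partners as well, and others have shorter overlaps. Tomm5, a small subunit bound to the pore, rose by 0.24 on the log2 scale.

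The receptor Tomm20, which binds presequences at the surface, was flat. It was at 27.01 and 25.71 FPKM in Ctrl and at 25.76 and 26.37 in cKO, with overlapping groups (log2 fold change -0.02, SE 0.0592, 95% interval -0.16 to 0.12, adjusted p = 0.874). Tomm6 and Tomm7, small subunits that act on the assembly of the complex, lay beside it, Tomm6 at 149.11 and 144.6 FPKM in Ctrl and 148.29 and 144.58 in cKO, and Tomm7 at 64.65 and 63.46 in Ctrl and 63.96 and 64.24 in cKO. The 95% interval of the log2 fold change was -0.14 to 0.13 for Tomm6 and -0.12 to 0.13 for Tomm7, so changes as large as those of Tomm22 and Tomm40 lie outside both. Tomm70a, the receptor for carrier proteins, and Tomm34, a cytosolic cochaperone, had log2 fold changes of 0.05 and 0.11 and did not pass the test. The noncoding Tomm6os was listed at 1.04 and 1.17 FPKM in Ctrl and at 0.97 and 0.73 in cKO, just under the filter, and shares 219 bases of exon with Tomm6. Tomm6 also shares 488 bases of exon on the same strand with Gm21981, with which reads could be shared.

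The sorting machinery of the outer membrane rose in 2 of its 3 genes. Samm50, the barrel that inserts other barrel proteins, was at 93.74 and 98.07 FPKM in Ctrl and at 134.65 and 123.72 in cKO (log2 fold change 0.43, SE 0.0644, adjusted p = 0.00396). Mtx2, which encodes a metaxin on the cytosolic face of the same complex, rose from 43.25 and 44.82 FPKM to 56.86 and 56.32 (0.35, adjusted p = 0.00426). Mtx1, its partner, was at 21.89 and 21.9 in Ctrl and at 24.4 and 24.76 in cKO. Mtx1 did not pass (0.16, SE 0.0568, adjusted p = 0.0808), although its groups did not overlap either. Samm50 shares 111 bases of exon on the same strand with Gm49513, with which reads could be shared.

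**Figure D3:**
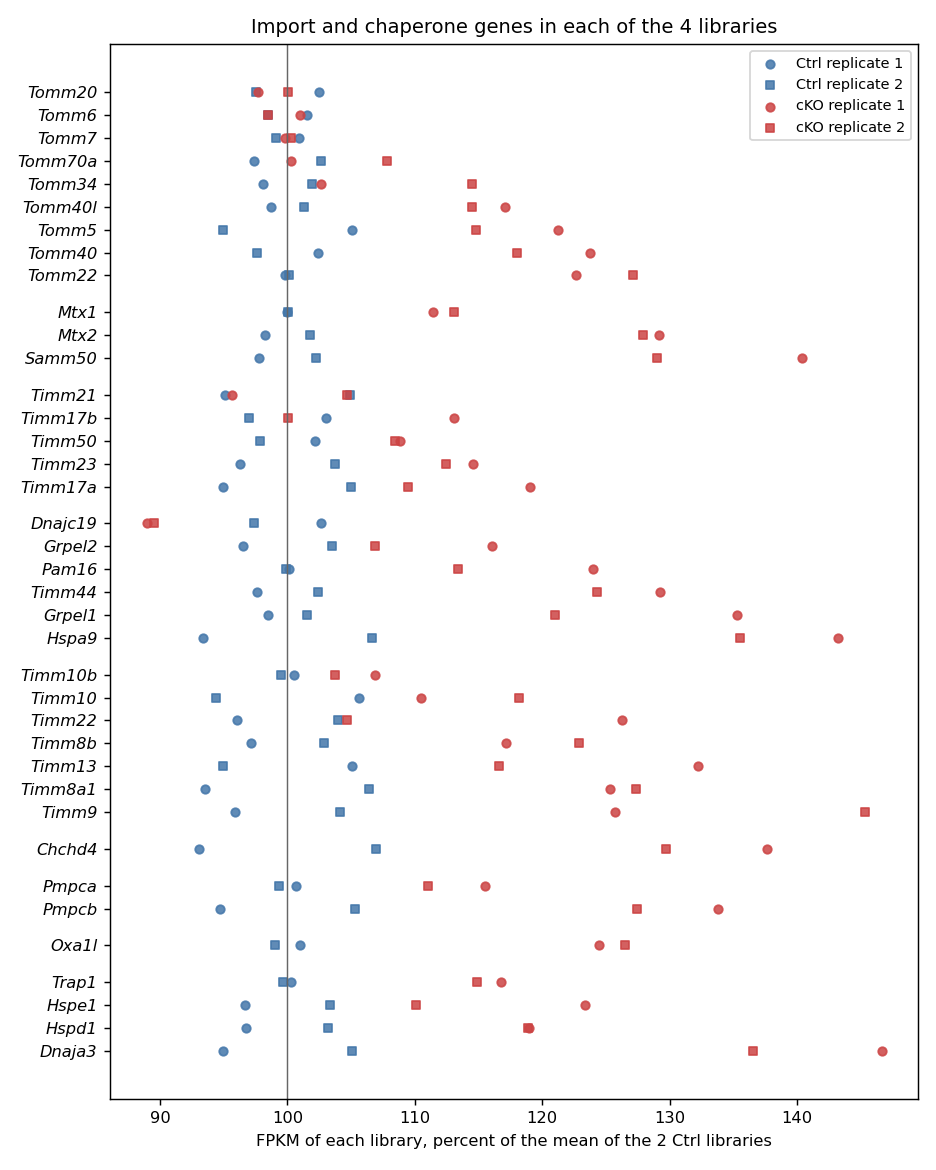
FPKM of each of the 38 genes in the 4 libraries, as a percent of the mean of the 2 Ctrl libraries, in the order of the roles in the text. Both cKO libraries were above both Ctrl libraries in 31 genes and below in 1, Dnajc19.

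At the inner membrane, the channel of the TIM23 translocase and the motor behind it gave unlike counts, 0 of 5 and 4 of 6 genes higher. The difference between these counts was not tested. Timm17a, a core subunit of the channel, was at 82.52 and 91.23 FPKM in Ctrl and at 103.38 and 95.09 in cKO (log2 fold change 0.19, SE 0.0724, adjusted p = 0.0982). Timm23, the other core subunit, was among the most abundant of the 40 genes, at 154.93 and 167 in Ctrl and 184.38 and 181.05 in cKO (0.18, SE 0.0618, adjusted p = 0.0701). Neither passed the test, although both cKO libraries were above both Ctrl libraries in each. Timm50, the receptor that takes over presequences, had a log2 fold change of 0.12 and did not pass. Timm17b, the second Timm17 gene, was at 15.45 and 14.54 in Ctrl and 16.96 and 15 in cKO (0.08, SE 0.0777, adjusted p = 0.468), with overlapping groups. Timm21, which links the translocase to the respiratory chain, was at 19.35 and 21.35 in Ctrl and 19.47 and 21.31 in cKO (0.00, SE 0.0754, adjusted p = 0.982), so the spread within each genotype was larger than any difference between them. Summed over the 5 channel genes, FPKM was 11.8% higher in cKO.

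The motor held some of the larger rises of the 38 genes and also their lowest log2 fold change. Hspa9, which encodes the matrix chaperone of the Hsp70 family that drives import, was at 203.45 and 232.33 FPKM in Ctrl and at 312.08 and 295.25 in cKO (log2 fold change 0.48, SE 0.0789, adjusted p = 0.00538). Both cKO libraries were well above both Ctrl libraries, and Hspa9 had the highest mean FPKM of the 40 genes. RefSeq names 1 further copy of Hspa9, with which reads could be shared. Of the other motor genes, whose products act with this chaperone, 3 rose as well. Grpel1, its nucleotide exchange factor, rose from 34.71 and 35.8 FPKM to 47.7 and 42.67 (0.35, SE 0.069, adjusted p = 0.011). Timm44, which tethers it to the channel, rose by 0.33 on the log2 scale, and Pam16, which holds its J-domain partner, by 0.24. Grpel2, the second exchange factor gene, was at 5.39 and 5.78 in Ctrl and 6.48 and 5.97 in cKO (0.13, SE 0.0821, adjusted p = 0.278), without overlap but not past the test.

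Dnajc19, which encodes a J-domain protein of the inner membrane, lay on the other side. It was at 42.89 and 40.67 FPKM in Ctrl and at 37.18 and 37.41 in cKO (log2 fold change -0.16, SE 0.0573, 95% interval -0.29 to -0.02, adjusted p = 0.0841). Both cKO libraries were below both Ctrl libraries, yet the difference did not pass the test, and RefSeq names 1 further copy of this gene with which reads could be shared. Dnajc15, the related gene for an inner membrane J-domain protein and no member by symbol, was at 155.71 and 159.28 in Ctrl and at 173.2 and 169.97 in cKO and did not pass either (0.12, adjusted p = 0.151). It is named here after its values were seen. Summed over the 6 motor genes, FPKM was 28.4% higher in cKO, at 385.3 and 415.2 in Ctrl and 529.2 and 498.8 in cKO. Most of each sum was Hspa9 alone, at 203.45 and 232.33 in Ctrl and 312.08 and 295.25 in cKO.

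The small Tim proteins of the intermembrane space, which escort membrane proteins across that space, and the carrier translocase Timm22 held 8 genes, of which 7 were tested and 4 rose. Timm9 was at 21.16 and 22.98 FPKM in Ctrl and at 27.74 and 32.07 in cKO (log2 fold change 0.42, SE 0.0833, adjusted p = 0.0109). Its groups did not overlap. Timm8a1, whose human counterpart is mutated in a deafness and dystonia syndrome, rose from 21.98 and 25 to 29.43 and 29.92 (0.33, SE 0.0734, adjusted p = 0.0174), and Timm8b from 95.95 and 101.65 to 115.76 and 121.42 (0.26, SE 0.0601, adjusted p = 0.0192). Timm13, the partner of the Timm8 proteins, rose by 0.31.

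The other small Tim genes did not pass. Timm10, the partner of Timm9, was at 33.64 and 30.07 FPKM in Ctrl and at 35.19 and 37.64 in cKO (0.19, adjusted p = 0.103). Timm10b, which sits on the carrier translocase, had the smallest log2 fold change of the group (0.07, SE 0.0558, adjusted p = 0.385). Its FPKM was 31.31 and 31 in Ctrl and 33.3 and 32.32 in cKO. Timm22, the channel for carrier proteins, was low, at 10.63 and 11.51 in Ctrl and 13.98 and 11.59 in cKO (0.19, adjusted p = 0.199), and 1 cKO library lay next to the higher Ctrl library. Timm8a2, a further copy of Timm8, was listed at 0 in Ctrl and at 0.06 in cKO, in both libraries of each. Chchd4, the oxidoreductase that traps cysteine-rich proteins such as the small Tims by disulfide bonds, rose from 14.93 and 17.15 FPKM to 22.07 and 20.81 (0.40, SE 0.0798, adjusted p = 0.0111), with no overlap.

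On the matrix side, the insertase gene rose, as did the gene for 1 of the 2 subunits of the processing peptidase. Pmpcb, the catalytic subunit of the peptidase that removes presequences, was at 79.46 and 88.35 FPKM in Ctrl and at 112.25 and 106.94 in cKO (log2 fold change 0.38, SE 0.0689, adjusted p = 0.00763). Pmpca, the subunit that recognizes them, was at 36.8 and 36.3 in Ctrl and 42.22 and 40.59 in cKO and did not pass (0.18, SE 0.056, adjusted p = 0.059). It shares 874 bases of exon with Inpp5e on the opposite strand. Oxa1l, which inserts proteins into the inner membrane from the matrix side, rose from 31.81 and 31.2 FPKM to 39.2 and 39.85 (0.32, SE 0.055, adjusted p = 0.00655).

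Of the 4 matrix folding chaperones, 3 rose. Dnaja3, a J-domain cochaperone of the matrix, was at 47.5 and 52.56 FPKM in Ctrl and at 73.36 and 68.32 in cKO, and its log2 fold change of 0.49 was the largest of the 38 (SE 0.0704, adjusted p = 0.00309). Trap1, the mitochondrial member of the Hsp90 family, had the smallest change of the group but little spread, at 96.35 and 95.76 in Ctrl and 112.17 and 110.36 in cKO (0.21, SE 0.0533, adjusted p = 0.0273). Neither gene had overlapping groups. Dnaja3 shares 160 bases of exon with Vasn on the same strand and 153 with Coro7 on the opposite strand. Reads could be shared with both. Hspd1, the barrel of the chaperonin, rose from 158.33 and 168.83 to 194.62 and 194.4 (0.25, SE 0.0598, adjusted p = 0.0224). Hspe1, its lid, was at 140.02 and 149.74 in Ctrl and 178.67 and 159.52 in cKO (0.22, SE 0.0738, adjusted p = 0.068), so the fold changes of this pair were close, the groups did not overlap for either gene, and the SE was wider for Hspe1, which did not pass. Hspd1 and Hspe1 have the shared promoter stretch shown above, and share 112 bases of exon on opposite strands. RefSeq names 5 further copies of Hspd1 and 7 of Hspe1, so their counts are uncertain to the extent that reads were split with these.

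Several of these proteins work in pairs or come as pairs of related genes, and the ratio of their FPKM within a library was compared as a description. Grpel1 stood at 6.44 and 6.19 times Grpel2 in Ctrl and at 7.36 and 7.15 times in cKO. Pmpca stood at 0.463 and 0.411 of Pmpcb in Ctrl and at 0.376 and 0.38 in cKO. These ratios did not overlap between genotypes. Those of Timm8a1 to Timm8b did not overlap either, though replicate 2 of each genotype rounds to the same value (0.229 and 0.246 in Ctrl, 0.254 and 0.246 in cKO). The ratios of Hspd1 to Hspe1 (1.13 and 1.13 in Ctrl, 1.09 and 1.22 in cKO), Timm17a to Timm17b (5.34 and 6.27, 6.1 and 6.34) and Tomm40 to Tomm40l (2.46 and 2.29, 2.51 and 2.45) overlapped. Ratios for 3 further pairs were taken after the values were seen. Those of Timm9 to Timm10 (0.629 and 0.764 in Ctrl, 0.788 and 0.852 in cKO) and of Hspa9 to Grpel1 (5.86 and 6.49, 6.54 and 6.92) did not overlap, and those of Timm8a1 to Timm13 (0.378 and 0.476, 0.402 and 0.464) did. Single genes often differed without overlap: both cKO libraries were above both Ctrl libraries in 31.9% of genes tested and below in 34.6%. The share among ratios of other gene pairs was not computed. With 2 libraries a genotype, the smallest two-sided p that an exact permutation test of a single ratio can give is 0.333. No such test was made.

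**Figure D4:**
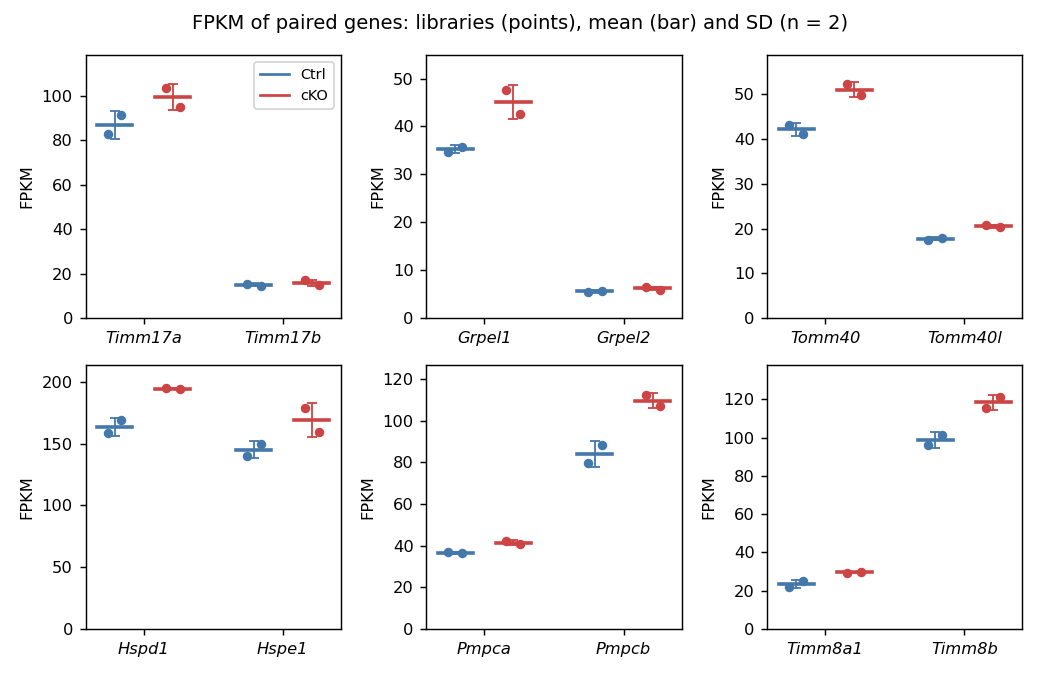
FPKM of 6 pairs of genes in Ctrl and cKO ingWAT, with a point per library, a bar at the mean and the SD (n = 2), on axes that start at 0. Grpel1 and Pmpcb were higher in cKO by more than their partners Grpel2 and Pmpca, whereas Hspd1 and Hspe1 kept a similar ratio.

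Genes with work close to that of the import system were counted beside it. Among all genes tested, 12% rose and 13.8% fell. Of 25 other genes of import, maturation and cristae, 23 were tested, 7 rose and 0 fell, and their median was 0.12 on the log2 scale. The largest value among them was that of Immt, the central organizer of cristae junctions, which was at 117.66 and 133.01 FPKM in Ctrl and at 177.71 and 164.01 in cKO (0.45, adjusted p = 0.00671). The smallest was that of Agk, a lipid kinase that is also part of the carrier translocase, at 10.1 and 11.11 in Ctrl and 8.7 and 9.34 in cKO (-0.21, adjusted p = 0.089, not past the test). Of 12 mitochondrial proteases and prohibitins, 6 rose and 1 fell, with a median of 0.20. Afg3l2, a subunit of the matrix-facing protease of the inner membrane, had the largest rise, from 37.84 and 41.84 to 60.34 and 56.31 (0.54, adjusted p = 0.00222). Yme1l1, the protease that faces the intermembrane space and degrades import subunits, fell from 23.34 and 23.28 to 19.92 and 20.33 (-0.20, adjusted p = 0.0403). Without any 1 of the 4 libraries, Yme1l1 no longer passed. Among the import genes that rose, the same held for Trap1, Hspd1, Tomm40l and Tomm5.

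Chaperones outside mitochondria were counted in the same way, again beside 12% of all genes tested that rose and 13.8% that fell. Of 22 cytosolic and endoplasmic reticulum chaperones, 9 rose, 0 fell and 13 did not pass the test, with a median of 0.21. Hsph1, a cytosolic partner of Hsp70, rose from 12.35 and 17.38 FPKM to 29.27 and 29.36 (0.95, SE 0.135, adjusted p = 0.00307), a larger log2 fold change than that of any of the 38 import and chaperone genes. Cct6a, a subunit of the cytosolic chaperonin, had the smallest value, at -0.04. Without Ctrl replicate 1, 2 of these 22 passed, as did 0 of the 23 import, maturation and cristae genes and 1 of the 12 proteases and prohibitins.

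The import genes lay between other mitochondrial gene sets taken by symbol. Of 81 respiratory chain and ATP synthase subunits tested, 65 rose and 5 fell, and the median was 0.37 on the log2 scale. Of 77 mitochondrial ribosomal proteins, 23 rose and 0 fell, with a median of 0.16. Of the import genes tested, 52.6% were higher, beside 80.2% of the respiratory subunits, 29.9% of the ribosomal proteins and 12% of all genes tested. The differences between these sets were not tested. In sums of FPKM, the 40 import genes were 19.1% higher in cKO, the respiratory subunits 33% and the ribosomal proteins 13.5%.

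**Figure D5:**
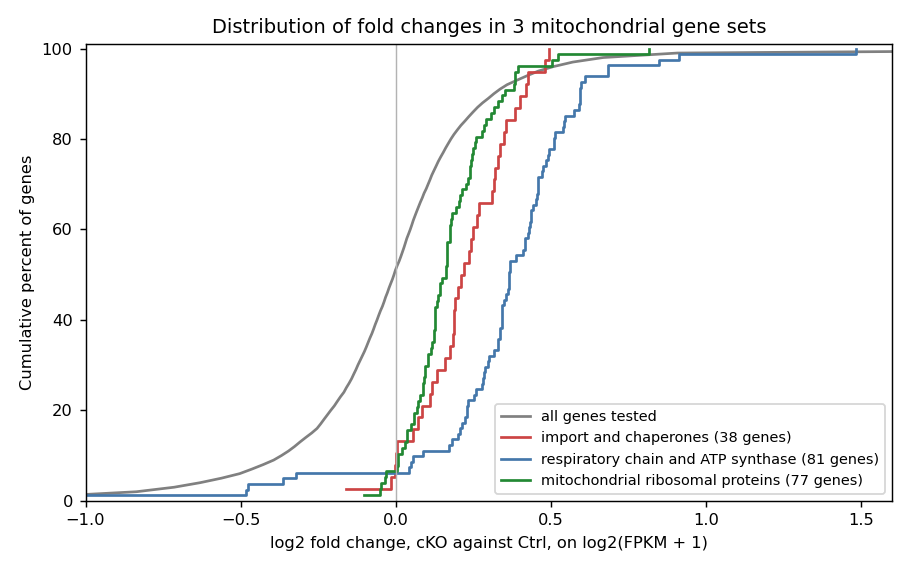
Cumulative percent of genes by log2 fold change of cKO against Ctrl, for all genes tested and 3 mitochondrial gene sets. The median is 0.22 for the import and chaperone genes, 0.37 for the respiratory chain and ATP synthase subunits, 0.16 for the mitochondrial ribosomal proteins and -0.01 for all genes, and the most extreme genes lie outside the axis.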

How the data were processed

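RNA of ingWAT from 2 Ctrl and 2 cKO samples was selected for polyadenylated transcripts and read by the authors as single ends. The deposited values are FPKM per gene and library, made by the authors, and the submitters' processing notes name mm10, HISAT2 2.0.4 and RSEM 1.2.12. Strandedness, scaling between libraries and depth are not given in the sources used here. Samples were assigned to genotypes by their labels. Replicate numbers are not said to mark pairs, and nothing states that replicates come from separate animals. The p-values therefore rest only on the spread between these libraries, with that of each gene drawn toward a trend over all genes tested.

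Using limma 3.58.1 (R 4.3.3, eBayes with a trend), log2(FPKM + 1) was compared over all 4 libraries for genes whose FPKM averaged 1 or more, with Benjamini-Hochberg adjustment over 12658 genes. A fold change on this scale understates that of low genes. The procedure was tested on simulated data in which the changed genes moved by at least 0.5 on the log2 scale. No import gene reached that size, so the run does not show how well changes as small as theirs are found. No count test was run, since the table holds no counts. Depth was estimated from the steps between FPKM values of 299 short RNA genes, of which 85.1% to 91.1% came out as whole reads within 0.1, and reads per gene follow from it and the transcript length, with counting error only. Symbols that had become dates in the table (24 genes) were named by gene ID.

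The genes and lists were chosen with earlier results of these data known, so lists are described by counts and medians, with no set test. Full values were given for Slc22a3, for the largest and smallest log2 fold change in each of 9 role groups, and for 6 pairs. Other members are named with fewer values, and of the other lists the largest and smallest. Promoter letters were searched on both strands with Python 3.11.15 and pandas 2.3.3. The alternatives were another pseudocount, filter, scaling, variance model or threshold, a block for the replicate number, and leaving out each library.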

Additional observations from a re-analysis of the deposited data

How the results depend on the processing

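Of the import genes 20 rose, and the count was 7 with no filter, 13 for eBayes without a trend, 0 with an added log2 fold change of at least 0.5, and 0 to 14 on leaving out each replicate, lowest without Ctrl replicate 1. None was lower in any of these. The lone library of a genotype was then assumed to vary like the other genotype. The role groups with a rise (8) went to 5 with no filter and to 0 to 8 on leaving out each replicate. With no filter, the genes of the whole table that rose went from 1519 to 667 and those that fell from 1750 to 1095, and leaving out each replicate gave 303 to 1072 and 484 to 1379. Called genes of the list of other import, maturation and cristae genes (7) went to 4 with no filter and 0 to 6 on leaving out each replicate. Those of the proteases and prohibitins (7) went to 4 with no filter, to 4 for eBayes without a trend and to 1 to 5, and those of the cytosolic and endoplasmic reticulum chaperones (9) to 2 with no filter and to 2 to 5. The cause was not tested. The median log2 fold change of the import genes stayed between 0.19 and 0.25 in all alternatives, and that of Slc22a3 between -0.89 and -0.80. The genes that changed sign were not past the test: Tomm6 at 0.01 with median-of-ratios scaling and -0.03 to 0.02 on leaving out each replicate, Tomm7 at -0.01 with quantile normalization and -0.01 to 0.01 on leaving out each replicate, Tomm20 at -0.05 to 0.02 and Timm21 at -0.06 to 0.07. With the replicate number as a block, 19 import genes rose, all among the 20, without Tomm40l. The differences between replicates 1 and 2 had a correlation of 0.0148 between genotypes over genes. This value alone cannot show whether libraries of the same number were paired.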
